A study of Mus musculus with 12 samples.

Results

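Endothelial markers of the liver, 35 genes in all, were followed across 4 groups of mouse livers: 12 that mark the endothelium of the liver sinusoids (Stab1, Stab2, Lyve1, Clec4g, Fcgr2b, Flt4, Ehd3, Gpr182, Oit3, Dnase1l3, Gata4 and F8) and 23 that mark blood vessels in general. A gene was taken where a probe set of the array named it alone, and where several did, the brightest on average was used. This gave 34 members, 12 sinusoidal and 22 vascular, out of 18194 genes measured. The remaining vascular member, Tspan7, was named by no such probe set. Liver sinusoidal endothelial cells line the capillaries between plates of hepatocytes. They are perforated by open fenestrae, lack an ordered basement membrane, and clear waste macromolecules from blood through scavenger receptors and an Fc receptor. They also send growth signals to hepatocytes, and their differentiated state is lost in many liver diseases, when they come to resemble the closed capillaries of other organs.

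Total RNA from livers of 12 male mice on the 129J background, 3 in each of 4 groups and 1 animal on each Affymetrix mouse genome array, was profiled to compare Iqgap2-/- (KO) mice, a model of hepatocellular carcinoma (HCC), with wild-type (WT) mice. The groups are hepatic tumors of KO mice at 24 months, livers of KO mice at 6 months, livers of WT mice at 24 months and livers of WT mice at 6 months. All mice received a regular diet, and the tissue of the 3 groups other than the tumors is described as normal liver. A value here is a log2 intensity, so that a difference of 1 is a fold of 2, and values are listed for replicates 1, 2 and 3 of a group. In each comparison, a gene is called when its Benjamini-Hochberg adjusted p in limma, over all 18194 genes, is 0.05 or less.

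Iqgap2, the deleted gene, had log2 intensities of 12.15, 12.05 and 12.15 in the arrays labelled KO 24 months tumor and 8.12, 8.68 and 8.07 in those labelled KO 6 months. Values of Iqgap2 were 12.28, 12.30 and 11.92 in arrays with the label WT 24 months and 8.38, 8.24 and 8.33 in arrays with the label WT 6 months. It was high in every array labelled KO 24 months tumor and low in every array labelled WT 6 months, which goes against both labels. The array labels were kept as deposited, and each direction below rests on them. If the label WT 6 months belonged to the arrays called KO 24 months tumor, and the reverse, the comparisons would hold the same pairs of arrays under other names. The difference called KO 6 months over WT 6 months would be KO 6 months over KO 24 months tumor, and the difference called WT 24 months over WT 6 months would be WT 24 months over KO 24 months tumor. Likewise, KO 24 months tumor over WT 24 months would be WT 6 months over WT 24 months, and KO 24 months tumor over KO 6 months would be WT 6 months over KO 6 months. The arrays labelled WT 6 months also carried the highest proliferation markers (a mean log2 intensity of 7.04 to 7.71 over 4 genes, against 4.69 to 6.22 in the other 9 arrays). Hepatocyte markers, the marker genes of the labelled tissue, averaged 14.08 to 14.38 in every array. Of these 8 genes 1, Apob, was called lower, by 1.34 in KO 24 months tumor over WT 24 months (adjusted p = 0.0469) and by 1.04 in KO 6 months over WT 6 months (adjusted p = 0.0161). One array, WT 24 months replicate 3, stood apart in its Kupffer cell and macrophage markers, with a mean of 11.19 over 11 genes against 8.01 and 8.94 in the other arrays of that label. It also exceeded those arrays in platelet markers (7.71 against 5.92 and 6.34) and neutrophil markers (7.88 against 6.27 and 6.55). The same held for T and B cell markers (6.02 against 5.30 and 5.17) and proliferation markers (6.22 against 5.01 and 4.69).

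Promoters of 5 members are printed, 250 bases before the start of transcription in the sense of the gene, because the results turn on these genes: Ehd3, Clec4g and Kdr had some of the smallest adjusted p, Tie1 passed with them, and Nrp1 did not pass. They were chosen after the values were seen, and come from RefSeq on build GRCm38.p6, which is the reference strain and not 129J. Capitals mark matches to the letters AGGAAG on either strand, the core bound by ETS factors such as Erg, and the 2 adjacent matches in Clec4g overlap.
Ehd3 (chr17:73804591-73804840, plus strand): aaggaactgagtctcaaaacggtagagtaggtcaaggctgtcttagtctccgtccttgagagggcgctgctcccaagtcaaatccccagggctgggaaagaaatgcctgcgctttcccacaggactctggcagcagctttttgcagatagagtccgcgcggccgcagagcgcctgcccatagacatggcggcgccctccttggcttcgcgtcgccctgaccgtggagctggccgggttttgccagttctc
Clec4g (chr8:3720652-3720901, minus strand): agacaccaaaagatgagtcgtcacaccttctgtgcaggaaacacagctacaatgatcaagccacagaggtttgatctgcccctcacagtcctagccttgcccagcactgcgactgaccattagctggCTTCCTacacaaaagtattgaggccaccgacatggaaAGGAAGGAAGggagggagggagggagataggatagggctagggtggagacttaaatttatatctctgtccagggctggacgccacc
Kdr (chr5:75978456-75978705, minus strand): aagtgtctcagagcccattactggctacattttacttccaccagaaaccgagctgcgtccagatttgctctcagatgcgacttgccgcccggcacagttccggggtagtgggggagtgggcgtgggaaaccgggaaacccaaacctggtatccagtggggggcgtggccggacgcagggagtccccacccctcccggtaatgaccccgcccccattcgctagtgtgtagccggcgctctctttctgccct
Tie1 (chr4:118489850-118490099, minus strand): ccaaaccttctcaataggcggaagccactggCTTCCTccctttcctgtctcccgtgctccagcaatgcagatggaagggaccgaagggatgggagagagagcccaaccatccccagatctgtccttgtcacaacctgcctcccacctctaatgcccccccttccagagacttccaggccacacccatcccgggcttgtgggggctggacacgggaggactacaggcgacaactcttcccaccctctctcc
Nrp1 (chr8:128358823-128359072, plus strand): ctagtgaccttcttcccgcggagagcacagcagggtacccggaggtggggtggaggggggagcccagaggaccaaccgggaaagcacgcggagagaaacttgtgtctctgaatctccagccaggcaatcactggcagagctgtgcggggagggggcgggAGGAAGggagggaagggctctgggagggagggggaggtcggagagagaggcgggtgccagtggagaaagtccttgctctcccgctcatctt
The table of promoters used listed 25 promoters for 21 of the 35 members. AGGAAG was present on either strand in 14 of these 25 promoters (56%), against 29.5% of all 32851 promoters of that length. AGATAA, a letter core of GATA factors, was found in 1 of 25 (4%), against 9.99% of all promoters, and AACAAT, a core of SOX factors, in 3 of 25 (12%), against 9.42%. These are counts of letters and were not tested.

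Most endothelial members had their lowest signal in the 3 arrays that bear the label WT 6 months. In KO 6 months over WT 6 months, 25 of 34 members were called higher, against 9.0% of all genes tested, and 1 was called lower, against 8.04%. The median log2 difference of the members was 1.37, that of all genes 0.05, and 13 members passed with a fold of 3 or more, which 1.20% of genes did with a rise. Among the sinusoidal members 11 of 12 rose (median 1.65), and among the vascular members 14 of 22 rose and 1 fell (median 1.26). The 3 arrays labelled KO 6 months lay above the 3 labelled WT 6 months without overlap for 29 members, which 22.1% of all genes did, and below them for 1, which 15.9% did. In bulk tissue, fewer cells of a type and less RNA per cell cannot be told apart.

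A second comparison shares the WT 6 months arrays with this one. In WT 24 months over WT 6 months, 27 members were called higher, against 6.22% of all genes, and 1 lower, against 7.07%, with a median of 1.33 (all genes 0.01). Here 11 of 12 sinusoidal members rose (median 1.67), 16 of 22 vascular members rose and 1 fell (median 1.26), and 12 passed with a fold of 3 or more (1.22% of genes). Groups were apart for 26 members higher (13.3% of all genes) and for 1 lower (12.9%). The count depended on the spread taken from all 4 groups: fitted on the 6 arrays of these 2 labels alone, limma called 15 members higher and 0 lower. A total of 24 members passed higher in both comparisons, 1 passed lower in both (Esam), and 5 passed in neither (Lyve1, Flt1, Emcn, Nrp1 and Cd34).

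**Figure D1:**
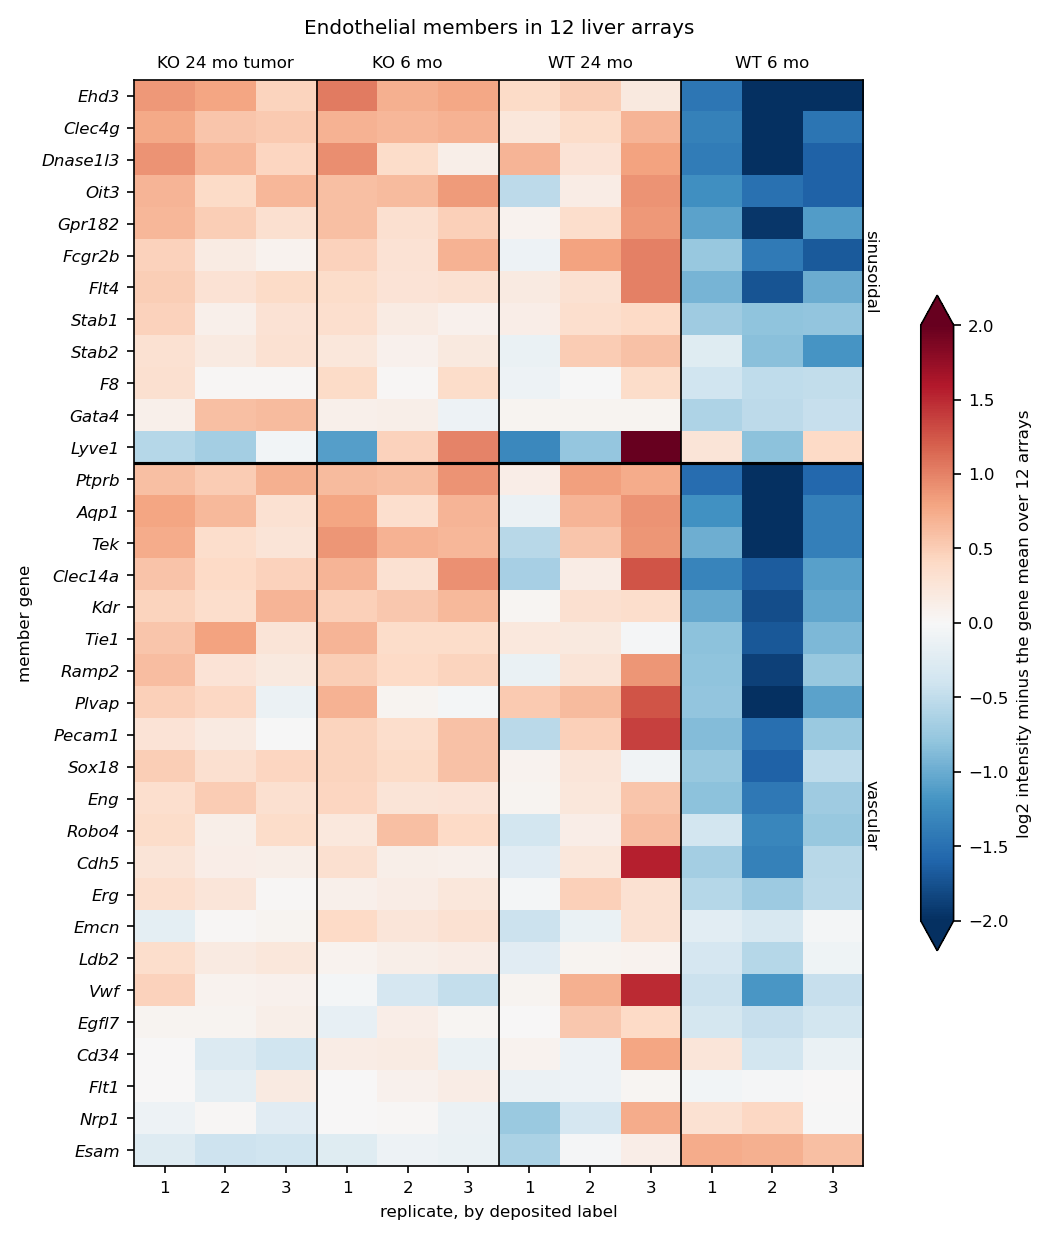
Log2 intensity of each of the 34 measured members (rows) in the 12 arrays (columns, by deposited label), minus the gene's mean over the 12 arrays; colours stop at a difference of 2 in either direction. Most rows are blue in the 3 arrays labelled WT 6 months, where 25 members lie under every other array, and Esam is the member for which those arrays lie above every other.

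A contrast of WT 6 months, as labelled, with the average of the remaining groups put 28 of 34 members lower (11.5% of all genes were lower) and 1, Esam, higher (10.6%), with a median of -1.30. All 3 of these arrays lay under all 9 others for 25 members, which 7.79% of genes did, and over all 9 for 1 member, which 7.29% did. Within that label replicate 2 was the lowest array for 27 of 34 members. Among the arrays labelled WT 24 months, replicate 3 was the highest for 27 members and replicate 1 the lowest for 29.

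Of the scavenger and lectin receptors of the sinusoid, 4 of 5 rose in each of both comparisons. Clec4g, a C-type lectin of liver and lymph node sinusoids, had log2 intensities of 10.00, 9.80 and 9.78 in the arrays labelled KO 24 months tumor and 9.95, 9.92 and 9.95 in those labelled KO 6 months. Values of Clec4g were 9.48, 9.62 and 9.94 in arrays with the label WT 24 months and 7.89, 6.89 and 7.78 in arrays with the label WT 6 months. The 3 values labelled WT 6 months lay well under all 9 others, whose ranges overlapped between labels. The difference was 2.42 ± 0.22 (SE) on the log2 scale, a fold of 5.34, in KO 6 months over WT 6 months (adjusted p = 3.44e-05). Clec4g differed by 2.16 ± 0.22, a fold of 4.46, in WT 24 months over WT 6 months (adjusted p = 9.56e-05).

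Stab1, a scavenger receptor also made by some macrophages, read 8.67, 8.32 and 8.50 in the arrays labelled KO 24 months tumor and 8.55, 8.38 and 8.30 in those labelled KO 6 months. Values of Stab1 were 8.36, 8.56 and 8.62 in arrays with the label WT 24 months and 7.51, 7.41 and 7.42 in arrays with the label WT 6 months. It moved less, its replicates lay close together, and no array labelled WT 6 months overlapped with another label. It differed by 0.96 ± 0.12 (SE) on the log2 scale, a fold of 1.95, in KO 6 months over WT 6 months (adjusted p = 0.000248). Stab1 differed by 1.06 ± 0.12, a fold of 2.09, in WT 24 months over WT 6 months (adjusted p = 0.000150). Fcgr2b, the inhibitory Fc receptor through which sinusoidal cells take up immune complexes and which B cells and macrophages also make, stood at 10.12, 9.84 and 9.73 in the arrays labelled KO 24 months tumor and 10.13, 9.96 and 10.36 in those labelled KO 6 months. Values of Fcgr2b were 9.56, 10.46 and 10.67 in arrays with the label WT 24 months and 8.91, 8.26 and 7.99 in arrays with the label WT 6 months. The arrays labelled WT 6 months were again the lowest, and WT 24 months replicate 3, the array rich in macrophage markers, was the highest of all 12. The change was 1.76 ± 0.29 (SE) on the log2 scale, a fold of 3.40, in KO 6 months over WT 6 months (adjusted p = 0.00169). Fcgr2b differed by 1.85 ± 0.29, a fold of 3.60, in WT 24 months over WT 6 months (adjusted p = 0.00147). The B cell marker Cd79a had log2 differences of 0.51 in KO 6 months over WT 6 months (adjusted p = 0.0236) and 0.35 in WT 24 months over WT 6 months (adjusted p = 0.116), and its part in the level of Fcgr2b was not tested.

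Stab2, the receptor that clears hyaluronan from blood, ranged over 9.37 to 9.50 in KO 24 months tumor, 9.28 to 9.42 in KO 6 months, 9.06 to 9.78 in WT 24 months and 8.01 to 8.94 in WT 6 months. It had log2 differences of 0.93 in KO 6 months over WT 6 months (adjusted p = 0.0160) and 1.08 in WT 24 months over WT 6 months (adjusted p = 0.00870). The first of these calls was lost without KO 6 months replicate 1 or 3 or without WT 6 months replicate 2 or 3, with adjusted p of 0.0520 to 0.0539. Lyve1, a second hyaluronan receptor that is also a marker of lymphatic vessels, had values of 5.59, 5.48 and 6.11 in the arrays labelled KO 24 months tumor and 5.06, 6.62 and 7.16 in those labelled KO 6 months. Values of Lyve1 were 4.87, 5.40 and 9.35 in arrays with the label WT 24 months and 6.42, 5.35 and 6.56 in arrays with the label WT 6 months. Its spread within labels was the widest among the members, all groups overlapped, and WT 24 months replicate 3 was the highest array. It had log2 differences of 0.17 in KO 6 months over WT 6 months (adjusted p = 0.928) and 0.43 in WT 24 months over WT 6 months (adjusted p = 0.855), neither of which passed, with a 95% interval of -1.67 to 2.53 for the second. Without WT 24 months replicate 3 that second value was -0.97.

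All 5 of the other sinusoidal products rose in both comparisons. Ehd3, a membrane-remodelling ATPase of the endocytic recycling route, was the member with the smallest adjusted p, and its log2 intensities were 9.78, 9.70 and 9.35 in the arrays labelled KO 24 months tumor and 9.95, 9.62 and 9.69 in those labelled KO 6 months. Values of Ehd3 were 9.30, 9.40 and 9.11 in arrays with the label WT 24 months and 7.47, 6.73 and 6.82 in arrays with the label WT 6 months. The highest array labelled WT 6 months was at 7.47 and the lowest of the other 9 at 9.11. It rose by 2.75 ± 0.19 (SE) on the log2 scale, a fold of 6.72, in KO 6 months over WT 6 months (adjusted p = 5.31e-06). Ehd3 differed by 2.26 ± 0.19, a fold of 4.80, in WT 24 months over WT 6 months (adjusted p = 2.42e-05).

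Dnase1l3, a secreted nuclease that degrades DNA of circulating particles, measured 8.35, 8.12 and 7.88 in the arrays labelled KO 24 months tumor and 8.39, 7.83 and 7.57 in those labelled KO 6 months. Values of Dnase1l3 were 8.13, 7.73 and 8.26 in arrays with the label WT 24 months and 6.05, 5.29 and 5.84 in arrays with the label WT 6 months. The 9 arrays of the other labels overlapped with each other and none reached down to the arrays labelled WT 6 months. The increase was 2.20 ± 0.24 (SE) on the log2 scale, a fold of 4.59, in KO 6 months over WT 6 months (adjusted p = 0.000145). Dnase1l3 differed by 2.31 ± 0.24, a fold of 4.97, in WT 24 months over WT 6 months (adjusted p = 0.000115). Oit3, a secreted liver protein with a zona pellucida domain, gave 8.63, 8.34 and 8.63 in the arrays labelled KO 24 months tumor and 8.55, 8.60 and 8.82 in those labelled KO 6 months. Values of Oit3 were 7.43, 8.10 and 8.85 in arrays with the label WT 24 months and 6.74, 6.47 and 6.33 in arrays with the label WT 6 months. In WT 24 months its replicate 1 came closest to the arrays labelled WT 6 months, without overlap. It increased by 2.14 ± 0.27 (SE) on the log2 scale, a fold of 4.42, in KO 6 months over WT 6 months (adjusted p = 0.000364). Oit3 differed by 1.61 ± 0.27, a fold of 3.06, in WT 24 months over WT 6 months (adjusted p = 0.00258).

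Gpr182, an atypical chemokine receptor of sinusoidal endothelium, ranged over 8.78 to 9.13 in KO 24 months tumor, 8.79 to 9.07 in KO 6 months, 8.54 to 9.33 in WT 24 months and 6.53 to 7.39 in WT 6 months. It had log2 differences of 1.84 in KO 6 months over WT 6 months (adjusted p = 0.000414) and 1.80 in WT 24 months over WT 6 months (adjusted p = 0.000547). F8, coagulation factor VIII, which these cells supply to plasma, ranged over 7.26 to 7.56 in KO 24 months tumor, 7.26 to 7.63 in KO 6 months, 7.14 to 7.61 in WT 24 months and 6.73 to 6.83 in WT 6 months. The gap was small but free of overlap, with log2 differences of 0.73 in KO 6 months over WT 6 months (adjusted p = 0.00573) and 0.55 in WT 24 months over WT 6 months (adjusted p = 0.0284). The second call was lost without WT 24 months replicate 3 or without any 1 of the WT 6 months arrays (adjusted p of 0.0553 to 0.0804).

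**Figure D2:**
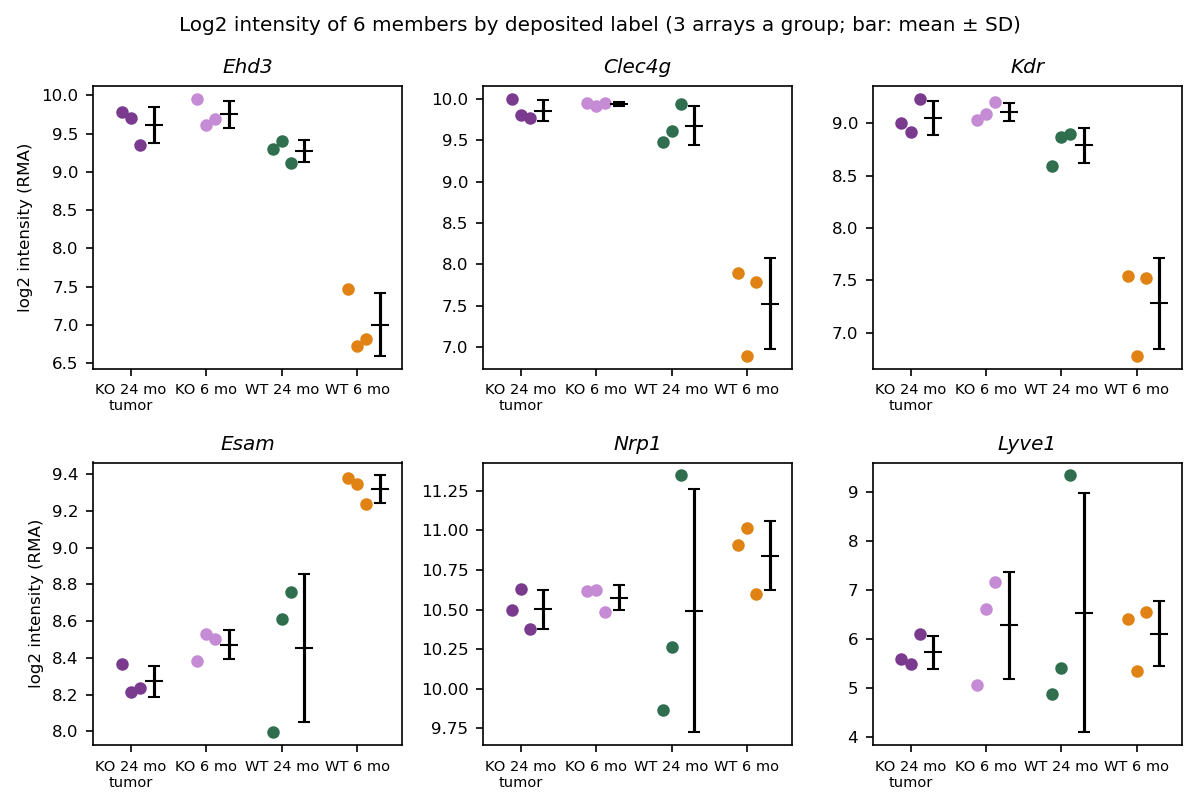
Log2 intensity of 6 members in each array by deposited label, with the mean and SD of each label (n = 3). Ehd3, Clec4g and Kdr are lowest in the arrays labelled WT 6 months, Esam is highest there, and the labels overlap for Nrp1 and Lyve1, where WT 24 months replicate 3 is the highest array.

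Receptors of vascular growth factors rose in 7 of 9 cases in each of both comparisons. Ptprb, the vascular endothelial phosphatase that restrains Tek and VE-cadherin signaling, had values of 9.89, 9.80 and 10.00 in the arrays labelled KO 24 months tumor and 9.92, 9.88 and 10.19 in those labelled KO 6 months. Values of Ptprb were 9.42, 10.11 and 10.03 in arrays with the label WT 24 months and 7.76, 6.69 and 7.72 in arrays with the label WT 6 months. It showed the largest difference among the vascular members, with every array labelled WT 6 months at 7.76 or less and every other at 9.42 or more. The rise was 2.60 ± 0.26 (SE) on the log2 scale, a fold of 6.08, in KO 6 months over WT 6 months (adjusted p = 7.53e-05). Ptprb differed by 2.46 ± 0.26, a fold of 5.50, in WT 24 months over WT 6 months (adjusted p = 0.000132).

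Kdr, the main signaling receptor for VEGF-A in vessels, read 9.0, 8.91 and 9.23 in the arrays labelled KO 24 months tumor and 9.03, 9.09 and 9.21 in those labelled KO 6 months. Values of Kdr were 8.59, 8.87 and 8.90 in arrays with the label WT 24 months and 7.54, 6.78 and 7.52 in arrays with the label WT 6 months. The order of labels was the same as for Ptprb at the low end, and KO 24 months tumor and KO 6 months overlapped. Kdr increased by 1.83 ± 0.19 (SE) on the log2 scale, a fold of 3.56, in KO 6 months over WT 6 months (adjusted p = 7.77e-05). Kdr differed by 1.51 ± 0.19, a fold of 2.85, in WT 24 months over WT 6 months (adjusted p = 0.000322). Tie1, an orphan receptor tyrosine kinase that modulates Tek, stood at 7.20, 7.45 and 6.90 in the arrays labelled KO 24 months tumor and 7.32, 7.01 and 7.02 in those labelled KO 6 months. Values of Tie1 were 6.86, 6.83 and 6.61 in arrays with the label WT 24 months and 5.82, 4.94 and 5.74 in arrays with the label WT 6 months. It was again lowest in the arrays labelled WT 6 months, and every array labelled KO 24 months tumor was above every array labelled WT 24 months, although that difference of 0.41 did not pass (adjusted p = 0.355). Against WT 6 months it changed by 1.61 ± 0.22 (SE) on the log2 scale, a fold of 3.06, in KO 6 months over WT 6 months (adjusted p = 0.000511). Tie1 differed by 1.27 ± 0.22, a fold of 2.41, in WT 24 months over WT 6 months (adjusted p = 0.00279).

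Flt4, the receptor for VEGF-C and VEGF-D, which counts here among the sinusoidal members, had log2 differences of 1.54 in KO 6 months over WT 6 months (adjusted p = 0.000992) and 1.72 in WT 24 months over WT 6 months (adjusted p = 0.000564). Tek, the angiopoietin receptor, had log2 differences of 2.24 in KO 6 months over WT 6 months (adjusted p = 0.00133) and 1.78 in WT 24 months over WT 6 months (adjusted p = 0.00596), and Eng, a co-receptor for BMP9 and BMP10, had log2 differences of 1.31 in KO 6 months over WT 6 months (adjusted p = 0.000642) and 1.26 in WT 24 months over WT 6 months (adjusted p = 0.000970). Ramp2, which joins Calcrl to form the adrenomedullin receptor, had log2 differences of 1.59 in KO 6 months over WT 6 months (adjusted p = 0.00406) and 1.47 in WT 24 months over WT 6 months (adjusted p = 0.00739). For all of these members the groups did not overlap in either comparison.

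Flt1 and Nrp1 were the growth factor receptors that passed in neither comparison. Flt1, a decoy and signaling receptor for VEGF, lay between 6.32 and 6.67 in all 12 arrays on the probe set used, and had log2 differences of 0.11 in KO 6 months over WT 6 months (adjusted p = 0.517) and -0.04 in WT 24 months over WT 6 months (adjusted p = 0.894). Another Flt1 probe set gave 0.63 in KO 6 months over WT 6 months (adjusted p = 0.0778). Nrp1, a co-receptor for VEGF and semaphorins, measured 10.50, 10.63 and 10.38 in the arrays labelled KO 24 months tumor and 10.61, 10.63 and 10.49 in those labelled KO 6 months. Values of Nrp1 were 9.87, 10.26 and 11.35 in arrays with the label WT 24 months and 10.91, 11.02 and 10.60 in arrays with the label WT 6 months. It was not low in WT 6 months, as labelled, and its highest and its lowest array both bore the label WT 24 months. It had log2 differences of -0.27 in KO 6 months over WT 6 months (adjusted p = 0.590) and -0.35 in WT 24 months over WT 6 months (adjusted p = 0.522), which did not pass, and limma called 0 of its 4 probe sets. Without WT 24 months replicate 3, Nrp1 had a difference of -0.78 in WT 24 months over WT 6 months (adjusted p = 0.00627).

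Junction and surface proteins split. In KO 6 months over WT 6 months 4 of 7 rose and 1 fell, and in WT 24 months over WT 6 months 5 rose and 1 fell. Aqp1, a water channel of endothelium that bile ducts and red blood cells also make, had log2 intensities of 10.49, 10.34 and 10.00 in the arrays labelled KO 24 months tumor and 10.49, 10.03 and 10.37 in those labelled KO 6 months. Values of Aqp1 were 9.57, 10.37 and 10.60 in arrays with the label WT 24 months and 8.49, 7.27 and 8.32 in arrays with the label WT 6 months. Its WT 6 months values lay under all others. It rose by 2.27 ± 0.32 (SE) on the log2 scale, a fold of 4.83, in KO 6 months over WT 6 months (adjusted p = 0.000734). Aqp1 differed by 2.15 ± 0.32, a fold of 4.45, in WT 24 months over WT 6 months (adjusted p = 0.00123). Of the red blood cell markers, Alas2, the heme synthesis enzyme of erythroid cells, had log2 differences of 1.44 in KO 6 months over WT 6 months (adjusted p = 0.0527) and -0.48 in WT 24 months over WT 6 months (adjusted p = 0.601), and Hba-a1, an alpha globin, had log2 differences of 0.08 in KO 6 months over WT 6 months (adjusted p = 0.615) and -0.06 in WT 24 months over WT 6 months (adjusted p = 0.783). Hba-a1 was dim, at 3.69 to 4.04 in all 12 arrays and under the median brightness of all genes (6.52), so little can be read from its differences. The part of red blood cells in the level of Aqp1 was not tested.

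Clec14a, an endothelial C-type lectin domain protein, measured 7.12, 6.95 and 7.02 in the arrays labelled KO 24 months tumor and 7.22, 6.86 and 7.47 in those labelled KO 6 months. Values of Clec14a were 5.89, 6.70 and 7.81 in arrays with the label WT 24 months and 5.23, 4.89 and 5.46 in arrays with the label WT 6 months. The arrays labelled WT 24 months ranged widely, with replicate 1 near those labelled WT 6 months and replicate 3 the highest of all. It changed by 1.99 ± 0.37 (SE) on the log2 scale, a fold of 3.97, in KO 6 months over WT 6 months (adjusted p = 0.00373). Clec14a differed by 1.61 ± 0.37, a fold of 3.04, in WT 24 months over WT 6 months (adjusted p = 0.0142). The second call was lost without WT 6 months replicate 2 (adjusted p = 0.0534). Esam, an adhesion molecule of endothelial tight junctions that platelets also carry, differed in the other direction, at 8.37, 8.22 and 8.23 in the arrays labelled KO 24 months tumor and 8.38, 8.53 and 8.50 in those labelled KO 6 months. Values of Esam were 8.0, 8.61 and 8.76 in arrays with the label WT 24 months and 9.38, 9.35 and 9.24 in arrays with the label WT 6 months. All 3 arrays labelled WT 6 months lay above all 9 others. Esam fell by 0.85 ± 0.16 (SE) on the log2 scale in KO 6 months over WT 6 months (adjusted p = 0.00469) and by 0.86 ± 0.16 in WT 24 months over WT 6 months (adjusted p = 0.00488).

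Pecam1, the platelet and endothelial adhesion molecule, had log2 differences of 1.50 in KO 6 months over WT 6 months (adjusted p = 0.0168) and 1.47 in WT 24 months over WT 6 months (adjusted p = 0.0221). The calls were lost without KO 6 months replicate 3 or WT 6 months replicate 2 in the first comparison (adjusted p of 0.0606 to 0.0686), and without WT 24 months replicate 2 or WT 6 months replicate 2 in the second (0.0544 to 0.0844). Robo4, a receptor that stabilizes vessels, had log2 differences of 1.22 in KO 6 months over WT 6 months (adjusted p = 0.00784) and 0.94 in WT 24 months over WT 6 months (adjusted p = 0.0335), and the second of these calls was lost on leaving out any 1 of 6 arrays (adjusted p up to 0.117): KO 24 months tumor replicate 1, KO 6 months replicate 3, WT 24 months replicates 2 and 3, and WT 6 months replicates 2 and 3. Cdh5, VE-cadherin of adherens junctions, had log2 differences of 1.04 in KO 6 months over WT 6 months (adjusted p = 0.0730) and 1.38 in WT 24 months over WT 6 months (adjusted p = 0.0268). The Cdh5 result turned on single arrays, as it passed in KO 6 months over WT 6 months without WT 24 months replicate 1 or 3, and failed in WT 24 months over WT 6 months without WT 6 months replicate 1 or 2. Emcn, a sialomucin of venous and capillary endothelium, was dim throughout (4.23 to 5.07) and had log2 differences of 0.50 in KO 6 months over WT 6 months (adjusted p = 0.0588) and 0.10 in WT 24 months over WT 6 months (adjusted p = 0.795), with a pass in the first comparison without WT 24 months replicate 1 or 3.

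Among markers of capillaries and large vessels, 1 of 4 rose in KO 6 months over WT 6 months and 3 of 4 in WT 24 months over WT 6 months. Plvap forms the diaphragms of endothelial pores and had values of 9.38, 9.32 and 8.79 in the arrays labelled KO 24 months tumor and 9.61, 8.96 and 8.87 in those labelled KO 6 months. Values of Plvap were 9.43, 9.55 and 10.17 in arrays with the label WT 24 months and 8.12, 6.88 and 7.83 in arrays with the label WT 6 months. Arrays with the label WT 24 months were the highest on average and those labelled WT 6 months the lowest, without overlap between the 2 labels. It rose by 1.54 ± 0.32 (SE) on the log2 scale, a fold of 2.90, in KO 6 months over WT 6 months (adjusted p = 0.00759). Plvap differed by 2.10 ± 0.32, a fold of 4.30, in WT 24 months over WT 6 months (adjusted p = 0.00142). Egfl7, a secreted endothelial protein, read 8.05, 8.05 and 8.12 in the arrays labelled KO 24 months tumor and 7.84, 8.13 and 8.04 in those labelled KO 6 months. Values of Egfl7 were 8.01, 8.54 and 8.41 in arrays with the label WT 24 months and 7.66, 7.54 and 7.64 in arrays with the label WT 6 months. Its WT 6 months arrays were lowest, though by much less than for Plvap, and it had log2 differences of 0.39 in KO 6 months over WT 6 months (adjusted p = 0.0655) and 0.71 in WT 24 months over WT 6 months (adjusted p = 0.00459). The first of these passed without WT 24 months replicate 1 or 2, and on the second and the third brightest of its 4 probe sets (adjusted p of 0.00613 and 0.0229).

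Vwf, von Willebrand factor of large vessels, gave 6.45, 6.05 and 6.06 in the arrays labelled KO 24 months tumor and 5.93, 5.65 and 5.50 in those labelled KO 6 months. Values of Vwf were 6.03, 6.69 and 7.47 in arrays with the label WT 24 months and 5.55, 4.82 and 5.52 in arrays with the label WT 6 months. It was highest on average in WT 24 months, where replicate 3 led, and in KO 6 months it overlapped with WT 6 months. It had log2 differences of 0.40 in KO 6 months over WT 6 months (adjusted p = 0.437) and 1.44 in WT 24 months over WT 6 months (adjusted p = 0.0108). Cd34, a sialomucin of continuous capillaries that is normally scarce in sinusoids, was dim (4.12 to 5.31) and its labels overlapped, with log2 differences of 0.15 in KO 6 months over WT 6 months (adjusted p = 0.708) and 0.34 in WT 24 months over WT 6 months (adjusted p = 0.407).

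All 4 transcription regulators rose in KO 6 months over WT 6 months and 3 of 4 in WT 24 months over WT 6 months. Sox18, a SOX factor of vascular and lymphatic development, stood at 7.30, 7.12 and 7.23 in the arrays labelled KO 24 months tumor and 7.25, 7.20 and 7.40 in those labelled KO 6 months. Values of Sox18 were 6.88, 7.05 and 6.74 in arrays with the label WT 24 months and 6.04, 5.19 and 6.30 in arrays with the label WT 6 months. The arrays labelled WT 6 months were lowest and replicate 2 was lowest among them. Sox18 increased by 1.44 ± 0.22 (SE) on the log2 scale, a fold of 2.71, in KO 6 months over WT 6 months (adjusted p = 0.00133). Sox18 differed by 1.04 ± 0.22, a fold of 2.06, in WT 24 months over WT 6 months (adjusted p = 0.0101).

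Erg, an ETS factor that sustains endothelial identity, measured 6.57, 6.48 and 6.25 in the arrays labelled KO 24 months tumor and 6.34, 6.38 and 6.45 in those labelled KO 6 months. Values of Erg were 6.19, 6.71 and 6.54 in arrays with the label WT 24 months and 5.66, 5.50 and 5.68 in arrays with the label WT 6 months. Its levels differed little among the other 3 labels, which overlapped, and were lower in all 3 arrays labelled WT 6 months. It rose by 0.78 ± 0.14 (SE) on the log2 scale, a fold of 1.72, in KO 6 months over WT 6 months (adjusted p = 0.00247). Erg differed by 0.86 ± 0.14, a fold of 1.82, in WT 24 months over WT 6 months (adjusted p = 0.00154). Gata4, the factor that directs sinusoidal fate in the mouse liver, read 7.19, 7.69 and 7.72 in the arrays labelled KO 24 months tumor and 7.19, 7.21 and 6.99 in those labelled KO 6 months. Values of Gata4 were 7.14, 7.15 and 7.15 in arrays with the label WT 24 months and 6.48, 6.57 and 6.63 in arrays with the label WT 6 months. KO 24 months tumor replicates 2 and 3 were its highest arrays and the WT 6 months arrays its lowest. The change was 0.57 ± 0.14 (SE) on the log2 scale, a fold of 1.48, in KO 6 months over WT 6 months (adjusted p = 0.0143). Gata4 differed by 0.59 ± 0.14, a fold of 1.50, in WT 24 months over WT 6 months (adjusted p = 0.0140). These calls were lost without KO 6 months replicate 1 or 2 in the first comparison (adjusted p of 0.0503 and 0.0554) and without WT 6 months replicate 1 in the second (0.0513). Ldb2, a cofactor of LIM-domain factors, had log2 differences of 0.44 in KO 6 months over WT 6 months (adjusted p = 0.0357) and 0.29 in WT 24 months over WT 6 months (adjusted p = 0.170). The first of these did not hold on leaving out any 1 of 5 arrays, all 3 of KO 6 months and replicates 1 and 2 of WT 6 months (adjusted p of 0.0735 to 0.134). In a limma fit of every probe set, the second brightest of the 3 Ldb2 probe sets, at a mean of 5.05, gave 1.16 and 0.86. It passed in both comparisons (adjusted p = 0.00846 and 0.0438), and the dimmest passed in neither.

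**Figure D3:**
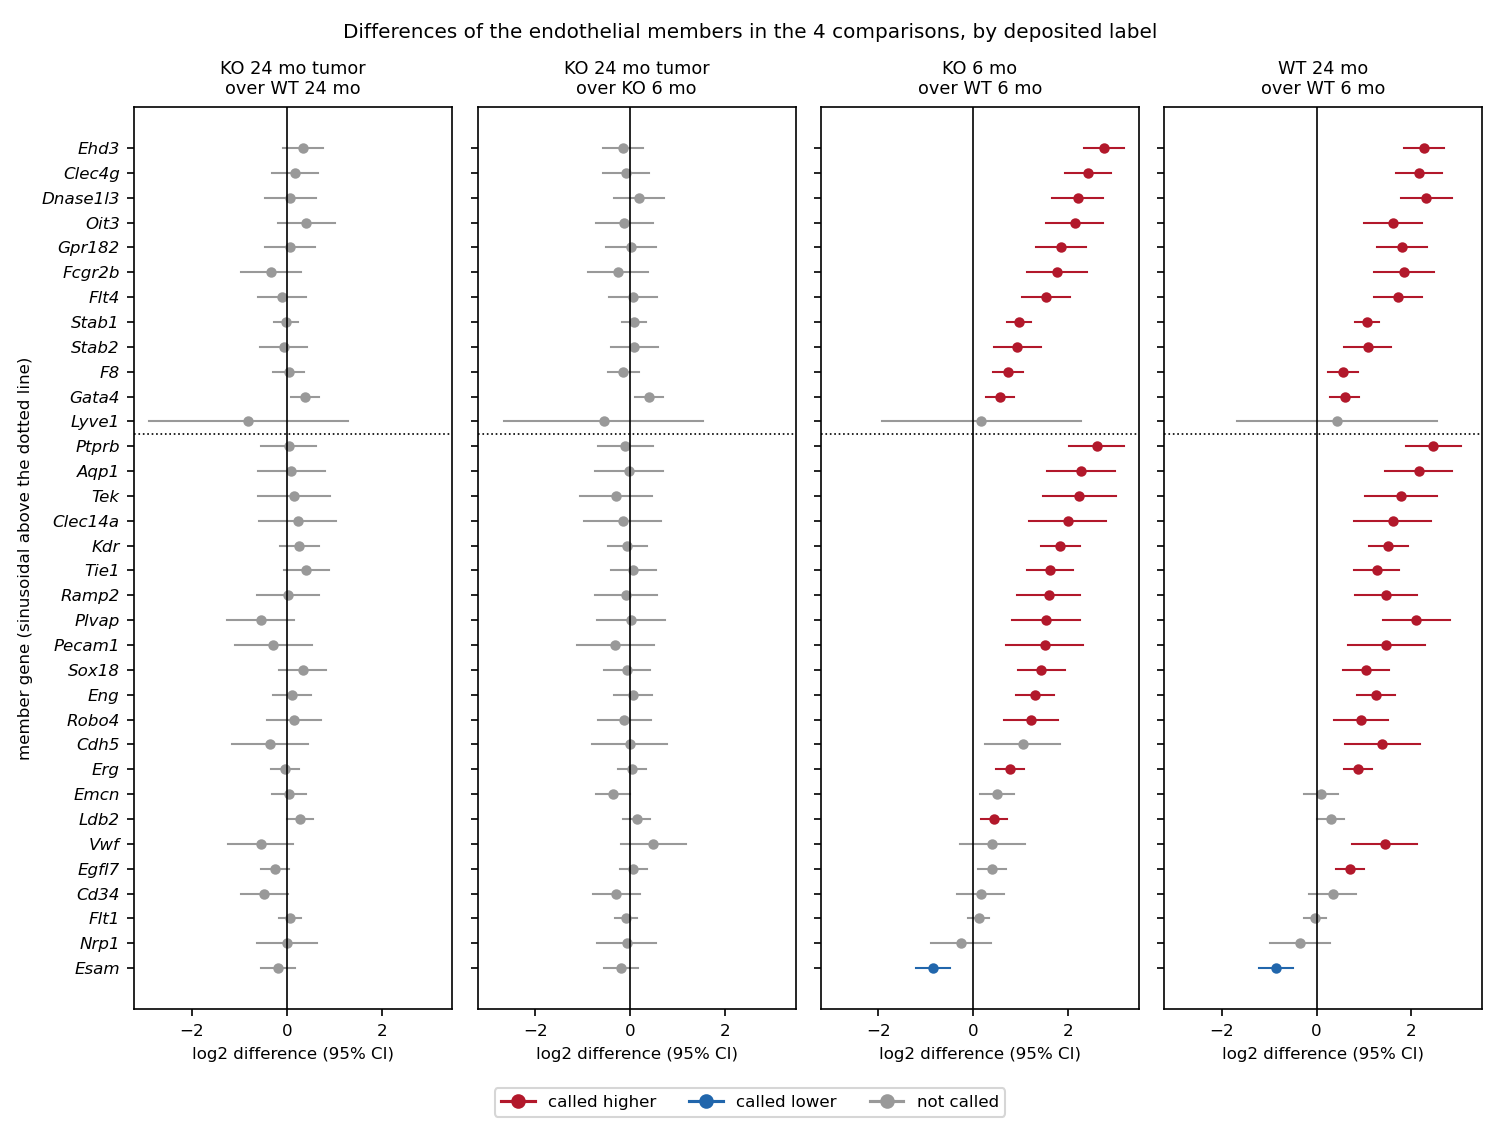
Log2 difference with its 95% confidence interval for the 34 measured members in 4 comparisons, by deposited label; red points were called higher and blue points lower at an adjusted p of 0.05 or less. No member is called in KO 24 months tumor over WT 24 months or over KO 6 months, while 25 and 27 are called higher in the 2 comparisons with WT 6 months.

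The arrays labelled KO 24 months tumor did not differ detectably in these genes from WT 24 months or from KO 6 months. In KO 24 months tumor over WT 24 months, limma called 0 of 34 members (0.572% of all genes), with 2 at an unadjusted p under 0.05, Gata4 and Ldb2, which 17.1% of genes reached. The differences ran from -0.81 (Lyve1) to 0.41 (Tie1) with a median of 0.05 (all genes 0.04). Gata4 was higher by 0.38 (95% interval 0.09 to 0.68, adjusted p = 0.193) and Ldb2 by 0.28 (0.00 to 0.56, 0.289), and each had every array labelled KO 24 months tumor above every array labelled WT 24 months. In all, 5 members were apart in that direction (14.0% of genes) and 1, Plvap at -0.55, in the other (7.83%). The interval of Ehd3 was -0.08 to 0.76, that of Clec4g -0.31 to 0.67 and that of Kdr -0.15 to 0.67, so a fold of 2 in either direction lies outside them. This held for 27 of 34 members, and not for Lyve1, Oit3, Pecam1, Cdh5, Clec14a, Plvap and Vwf.

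In KO 24 months tumor over KO 6 months, limma again called 0 of 34 members (0.0330% of all genes), with 1 at an unadjusted p under 0.05, Gata4, which 6.03% of genes reached. The values ran from -0.55 (Lyve1) to 0.49 (Vwf) with a median of -0.07. Gata4 differed by 0.41 (95% interval 0.11 to 0.70, adjusted p = 0.676). Groups were apart for 2 members higher (7.99% of genes), Ldb2 and Vwf, and 3 lower (8.24%), Pecam1, Emcn and Esam. The 95% interval lay within a fold of 2 in either direction for 30 of 34 members, and not for Lyve1, Tek, Pecam1 and Vwf. An exact permutation test of 3 arrays against 3 cannot give a two-sided p under 0.1, so single members were tested through the fit across all genes.

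The interaction of genotype and age, the change with age in KO minus the change with age in WT, stays the same contrast if the arrays called WT 6 months and KO 24 months tumor trade names. Age and tumor tissue cannot be told apart in this contrast, since the labelled KO group at 24 months is tumor and the others normal liver. Its value was negative for 32 of 34 members and positive for 2, Esam and Nrp1, with a median of -1.20. In limma 16 members were called below 0 (2.24% of all genes), 8 sinusoidal and 8 vascular, and 0 were called above 0 (2.59% of all genes). An unadjusted p under 0.05 was reached by 26 members, against 17.7% of all genes. Ptprb had the lowest value, -2.56 ± 0.37 (adjusted p = 0.00248), followed by Ehd3 at -2.41 ± 0.27 (0.000481) and Clec4g at -2.24 ± 0.31 (0.00187). The vascular count depended on single arrays: leaving out 1 array, it was 2 (KO 24 months tumor replicate 3 or KO 6 months replicate 1), 3 (KO 6 months replicate 3), 4 (KO 24 months tumor replicate 2), 5 (KO 24 months tumor replicate 1, KO 6 months replicate 2 or WT 24 months replicate 2) or 13 (WT 24 months replicate 1), and otherwise 7 or 9. The sinusoidal count stayed between 7 and 9.

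Averaged over members, the mean log2 intensity of the 12 sinusoidal genes was 8.62, 8.46 and 8.50 in KO 24 months tumor, 8.56, 8.51 and 8.62 in KO 6 months, 8.13, 8.41 and 9.01 in WT 24 months and 7.34, 6.77 and 7.07 in WT 6 months. That of the 22 vascular genes was 7.61, 7.50 and 7.45 in KO 24 months tumor, 7.63, 7.53 and 7.58 in KO 6 months, 7.12, 7.56 and 7.95 in WT 24 months and 6.71, 6.11 and 6.67 in WT 6 months. Both lists were lowest in the arrays labelled WT 6 months, and the sinusoidal list by more. The sinusoidal minus the vascular mean was 1.01 ± 0.05 in KO 24 months tumor, 0.98 ± 0.05 in KO 6 months, 0.97 ± 0.11 in WT 24 months and 0.57 ± 0.14 in WT 6 months (SD, n = 3 each). The 3 arrays labelled WT 6 months had 0.40 to 0.66 and the other 9 had 0.85 to 1.06. With the mean of all probe sets of each gene the sinusoidal minus the vascular mean was 0.78 in KO 24 months tumor, 0.78 in KO 6 months, 0.72 in WT 24 months and 0.56 in WT 6 months, so the 3 other labels then exceeded WT 6 months by 0.16 to 0.22, against 0.41 to 0.44 on the brightest probe set. Since the sizes of these means also reflect how brightly each probe set reports, they are compared across arrays only, and since the members were chosen with results known they carry no p.

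**Figure D4:**
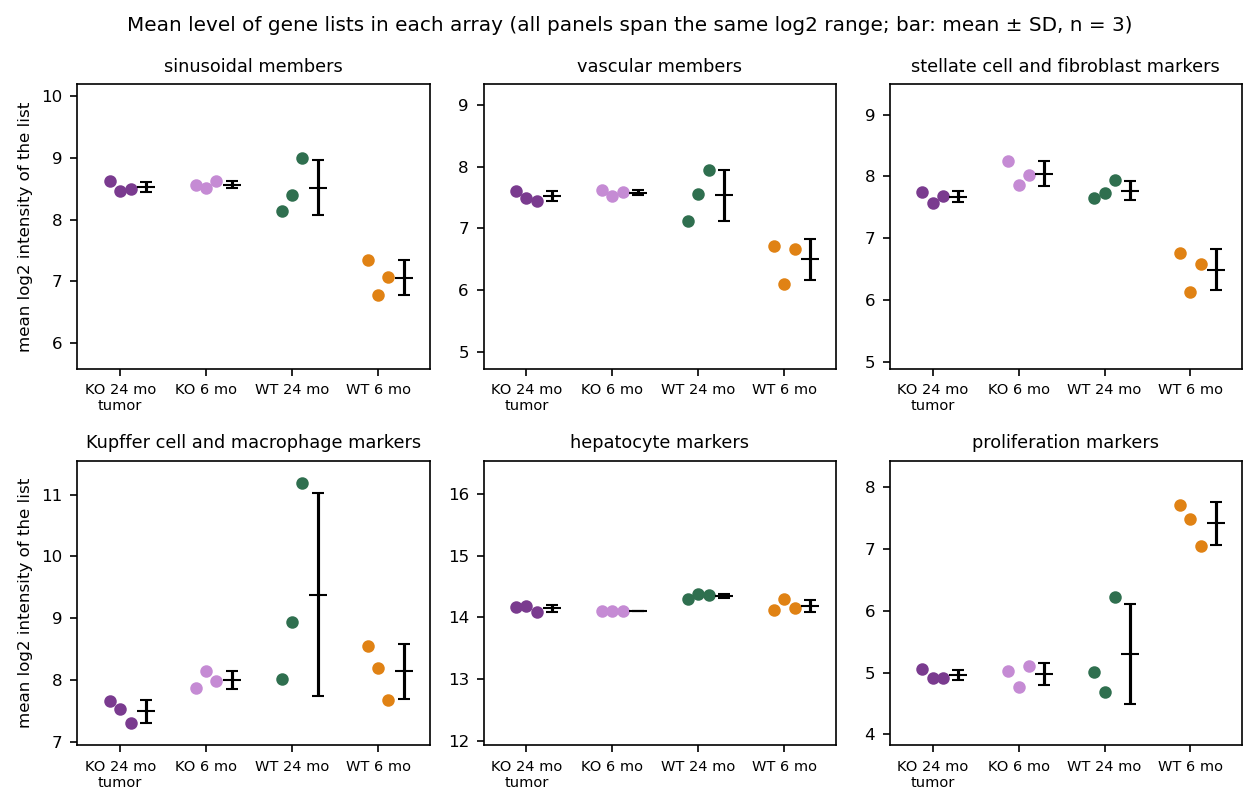
Mean log2 intensity of 6 gene lists in each array by deposited label, with the mean and SD of each label (n = 3); every panel spans the same range. The sinusoidal, vascular and stellate lists are lowest and the proliferation list highest in the arrays labelled WT 6 months, while the hepatocyte list stays between 14.08 and 14.38 and the Kupffer list is highest in WT 24 months replicate 3.

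Of the other cell type lists, stellate cell and fibroblast markers averaged 7.57 to 8.26 in the other 9 arrays against 6.12 to 6.76 in the arrays labelled WT 6 months, and 7 of 10 rose in each of both comparisons with WT 6 months. Among them Dcn, a matrix proteoglycan, had log2 differences of 2.97 in KO 6 months over WT 6 months (adjusted p = 6.77e-05) and 3.04 in WT 24 months over WT 6 months (adjusted p = 6.57e-05). Hand2, a transcription factor of stellate cells, had log2 differences of 2.05 in KO 6 months over WT 6 months (adjusted p = 1.22e-05) and 2.02 in WT 24 months over WT 6 months (adjusted p = 1.66e-05), and Lhx2, which keeps stellate cells quiescent, had log2 differences of 1.60 in KO 6 months over WT 6 months (adjusted p = 9.01e-05) and 1.43 in WT 24 months over WT 6 months (adjusted p = 0.000230). In each comparison 3 of the 10 were not called. Of these, Col1a1, a fibrillar collagen gene, went the other way, with log2 differences of -0.25 in KO 6 months over WT 6 months (adjusted p = 0.379) and -0.57 in WT 24 months over WT 6 months. All 4 proliferation markers measured fell in both comparisons, among them Birc5 by 2.43 in KO 6 months over WT 6 months and by 2.35 in WT 24 months over WT 6 months on the log2 scale. Of 11 Kupffer cell and macrophage markers 1 rose in KO 6 months over WT 6 months and 2 in WT 24 months over WT 6 months, and in KO 24 months tumor over WT 24 months their median was -2.00 with 0 of 11 called in limma and 9 at an unadjusted p under 0.05 (17.1% of all genes). Without WT 24 months replicate 3 that median was -1.04 with 1 called lower, and without WT 24 months replicate 1 it was -2.75 with 7 called lower. Of 7 T and B cell markers limma called 1 higher in KO 6 months over WT 6 months, the B cell gene Cd79a, and 0 in WT 24 months over WT 6 months, with 1 at an unadjusted p under 0.05 in each. Of 4 neutrophil markers limma called 0 in either comparison, with 2 at an unadjusted p under 0.05 in KO 6 months over WT 6 months, where their median was -1.09, and 0 in WT 24 months over WT 6 months. Of 4 platelet markers limma called 0 in either comparison, with 0 at an unadjusted p under 0.05, 1 of 5 bile duct markers (Krt7) rose in each of both comparisons, and of the lymphatic markers Reln, which stellate cells also make, rose while Prox1 and Pdpn did not pass. In the comparisons with WT 6 months, the share of all genes at an unadjusted p under 0.05 is not given. The unadjusted counts of the T and B cell, neutrophil and platelet lists there thus have no background. The part of other cell types and of proliferation in the endothelial differences was not tested.

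Of 7 VEGF and angiopoietin ligands limma called 0 higher in either comparison, 2 were lower in KO 6 months over WT 6 months and 1 in WT 24 months over WT 6 months, with 3 and 2 at an unadjusted p under 0.05 in any direction. Of all genes, 8.04% were called lower in the first comparison and 7.07% in the second. The share of all genes at an unadjusted p under 0.05 is not given for them, so the unadjusted counts have no background. Vegfb had log2 intensities of 7.05, 6.82 and 7.18 in the arrays labelled KO 24 months tumor and 7.39, 7.64 and 7.51 in those labelled KO 6 months. Values of Vegfb were 6.73, 6.72 and 7.35 in arrays with the label WT 24 months and 7.92, 8.05 and 8.39 in arrays with the label WT 6 months. It was highest in the WT 6 months arrays, as labelled, and had log2 differences of -0.60 in KO 6 months over WT 6 months (adjusted p = 0.0425) and -1.18 in WT 24 months over WT 6 months (adjusted p = 0.00141). Vegfd had log2 differences of -1.10 in KO 6 months over WT 6 months (adjusted p = 0.0426) and -0.78 in WT 24 months over WT 6 months (adjusted p = 0.163). Pgf, a ligand of Flt1, had log2 differences of 0.39 in KO 6 months over WT 6 months (adjusted p = 0.0562) and 0.15 in WT 24 months over WT 6 months (adjusted p = 0.537), and Vegfa, the main ligand of Kdr, had log2 differences of 0.05 in KO 6 months over WT 6 months (adjusted p = 0.876) and 0.30 in WT 24 months over WT 6 months (adjusted p = 0.281).

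In BMP9 and ALK1 signaling, which maintains endothelial quiescence, 5 of 10 genes rose and 2 fell in KO 6 months over WT 6 months, and 5 rose and 1 fell in WT 24 months over WT 6 months. Gdf2, which encodes the ligand BMP9 and is made by stellate cells, was at 8.65, 8.62 and 8.68 in the arrays labelled KO 24 months tumor and 8.74, 8.67 and 8.82 in those labelled KO 6 months. Values of Gdf2 were 8.60, 8.96 and 9.08 in arrays with the label WT 24 months and 7.12, 6.58 and 6.98 in arrays with the label WT 6 months. Its 3 WT 6 months values lay well under the other 9. The difference was 1.85 ± 0.15 (SE) on the log2 scale, a fold of 3.61, in KO 6 months over WT 6 months (adjusted p = 1.61e-05). Gdf2 differed by 1.98 ± 0.15, a fold of 3.96, in WT 24 months over WT 6 months (adjusted p = 1.15e-05). The target gene Id3 had log2 differences of 1.94 in KO 6 months over WT 6 months (adjusted p = 0.0171) and 2.63 in WT 24 months over WT 6 months (adjusted p = 0.00386), and Smad1, a transducer, had log2 differences of -0.52 in KO 6 months over WT 6 months (adjusted p = 0.00353) and -0.03 in WT 24 months over WT 6 months (adjusted p = 0.910). Smad1 was also lower by 0.56 in KO 24 months tumor over WT 24 months (adjusted p = 0.0375). Acvrl1, the gene of ALK1, was not called in either comparison with WT 6 months, at 0.02 (adjusted p = 0.980) and 0.70 (adjusted p = 0.241). It read 6.87 in WT 24 months replicate 3 and 4.70 to 5.27 in the other arrays. The ligand gene Bmp10 was not called either, at 0.04 (adjusted p = 0.805) and 0.11 (adjusted p = 0.557).

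Growth signals that the endothelium sends to hepatocytes rose for 5 of 6 genes in KO 6 months over WT 6 months and 4 of 6 in WT 24 months over WT 6 months. Rspo3, an amplifier of Wnt signaling from central vein endothelium, had log2 differences of 1.90 in KO 6 months over WT 6 months (adjusted p = 0.000210) and 1.84 in WT 24 months over WT 6 months (adjusted p = 0.000285). Bmp2, which controls hepcidin and iron, had log2 differences of 1.72 in KO 6 months over WT 6 months (adjusted p = 0.00106) and 1.79 in WT 24 months over WT 6 months (adjusted p = 0.00101), and Hgf, a hepatocyte mitogen that stellate cells also make, had log2 differences of 0.84 in KO 6 months over WT 6 months (adjusted p = 0.00262) and 1.00 in WT 24 months over WT 6 months (adjusted p = 0.00113). Of 8 Notch genes 2 rose in KO 6 months over WT 6 months (Jag1 at 0.81 and Dll4 at 0.51), and limma called 0 in WT 24 months over WT 6 months, with 2 at an unadjusted p under 0.05, for which no share of all genes is given. Of 12 further endothelial transcription factors 4 rose in KO 6 months over WT 6 months and 5 in WT 24 months over WT 6 months. Ets1 had log2 differences of 1.65 in KO 6 months over WT 6 months (adjusted p = 0.00231) and 1.67 in WT 24 months over WT 6 months (adjusted p = 0.00247). Sox7 had log2 differences of 0.81 in KO 6 months over WT 6 months (adjusted p = 0.00653) and 0.81 in WT 24 months over WT 6 months (adjusted p = 0.00775), and Elk3 had log2 differences of 1.85 in KO 6 months over WT 6 months (adjusted p = 0.00765) and 1.59 in WT 24 months over WT 6 months (adjusted p = 0.0198).

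Of 21 further endothelial genes 11 rose in KO 6 months over WT 6 months and 9 in WT 24 months over WT 6 months. The shares of all genes called higher there are given with the members above. In these comparisons 0 were called lower, and 10 and 12 were not called. Esm1 went the other way, at -1.94 on the log2 scale in the first comparison (adjusted p = 0.0718). In the second Esm1 was at -0.94 (adjusted p = 0.45). Vcam1, Selp and S1pr1 were also below 0 in the first, without a call. In WT 6 months against the other labels, 1 of the 21 was called higher, at a fold of 3 or more, and 10 lower. She, an adaptor protein, had log2 differences of 1.58 in KO 6 months over WT 6 months (adjusted p = 1.29e-05) and 1.45 in WT 24 months over WT 6 months (adjusted p = 2.78e-05). Calcrl, the receptor that pairs with Ramp2, had log2 differences of 1.57 in KO 6 months over WT 6 months (adjusted p = 0.00124) and 1.50 in WT 24 months over WT 6 months (adjusted p = 0.00188), and Tm4sf1, a tetraspanin-like protein of endothelium, had log2 differences of 1.69 in KO 6 months over WT 6 months (adjusted p = 0.00184) and 1.11 in WT 24 months over WT 6 months (adjusted p = 0.0220). Across all 61 probe sets that name a member alone, 38 were called higher and 1 lower in each of both comparisons, with 16 members read by several probe sets. Of all 34958 probe sets that name 1 gene, 7.28% were called higher and 6.77% lower in KO 6 months over WT 6 months, and 4.54% higher and 5.80% lower in WT 24 months over WT 6 months. Some dimmer probe sets of called members did not pass. In these 2 comparisons the second of Clec4g gave 0.33 and 0.10 (adjusted p = 0.165 and 0.786), and that of Erg 0.31 and -0.004 (0.214 and 0.993). Those of Dnase1l3, Gata4 and Clec14a passed in the first comparison only (0.162, 0.138 and 0.0983 in the second).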

How the data were processed

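The deposited values are log2 intensities, which the authors made from the scanned arrays by RMA (background correction, quantile normalization and summary of probes), per the labels. They were used as deposited, with array medians of 5.41 to 5.45, and 0 columns of samples were left unused. Of 45101 probe sets, 34958 named 1 gene in the platform annotation, 932 several and 9211 none, and the brightest single-gene probe set stood for each of 18194 genes. A linear model of the 4 labels was fitted with limma 3.58.1 (lmFit, contrasts.fit and eBayes, in R 4.3.3) and tested on simulated data. The study's SAM test was not run; its fold of 3 was kept as an alternative. The labels call the replicates biological and the paper gives 3 mice per group, so p-values measure the spread between these arrays, each of 1 animal. The smallest root mean square difference between 2 arrays was 0.23, so no array was a copy of another.

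The members, role groups and gene lists were chosen with earlier results of these data known, and several members (Kdr, Tek, Tie1, Ehd3, Gpr182, Oit3, Ramp2, Aqp1 and Plvap) stand in gene lists that the study chose on these samples, so their direction is not independent evidence. Values of all arrays are given for up to 3 members of each role group with the smallest adjusted p in the comparisons with WT 6 months and for members that passed against the direction of their list (Esam). Lyve1 and Nrp1 were added after their values were seen. For further lists up to 3 genes were named by the same rule. After their values were seen, Vegfa, Alas2, Hba-a1, Cd79a, Acvrl1 and Bmp10 were added for their roles, and Esm1 and Col1a1 for going the other way. Alternatives were the replicate block, the mean of all probe sets, dim genes left out, a trended and robust prior, centring on array medians or on housekeeping genes, every probe set, only the groups compared, folds of 2 and 3, and each array left out, which for the lists of cell markers was added after seeing the data. The replicate numbers were checked for pairing by correlating deviations from the group means. Promoters were searched for exact letters on both strands. Figures were drawn with matplotlib 3.10.9.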

Additional observations from a re-analysis of the deposited data

Results flagged for a closer look

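For 16 members the difference between ages, as labelled, was not the same in both genotypes in the interaction test of limma (adjusted p of 0.05 or less over all genes). The labelled KO group at 24 months is tumor and that at 6 months normal liver, so age and tumor tissue cannot be told apart here. Between those 2 KO groups limma called 0 of 34 members. The value is the log2 change with age in KO (KO 24 months tumor over KO 6 months) minus that in WT (WT 24 months over WT 6 months), and it is the same contrast if the arrays called WT 6 months and KO 24 months tumor trade names. Among the sinusoidal members it was -2.41 for Ehd3, -2.24 for Clec4g, -2.12 for Dnase1l3, -2.10 for Fcgr2b, -1.78 for Gpr182, -1.74 for Oit3, -1.65 for Flt4 and -0.98 for Stab1. Among the vascular members it was -2.56 for Ptprb, -2.18 for Aqp1, -2.09 for Plvap, -2.08 for Tek, -1.57 for Kdr, -1.20 for Tie1, -1.20 for Eng and -0.82 for Erg. Tie1 was nearest to the threshold (adjusted p = 0.0498), and its call was lost on leaving out any 1 of 8 arrays. The calls of Oit3 (7 arrays), Tek (9), Erg (8), Eng (4), Aqp1 (3) and Plvap (3) were also lost on leaving out some single arrays.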

How the results depend on the processing

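Requiring a fold of 3 or more left 6 sinusoidal and 7 vascular members higher in KO 6 months over WT 6 months, 7 and 5 in WT 24 months over WT 6 months, 4 vascular members lower in the interaction, and 7 sinusoidal and 6 vascular members lower in WT 6 months against the 3 other labels. It left 0 calls of Esam, as did a fold of 2 or more, at which 7 sinusoidal members were higher in KO 6 months over WT 6 months. With the 6 arrays of the comparison alone, WT 24 months over WT 6 months had 7 vascular members higher and 0 lower. With the replicate number as a block, 5 vascular members were lower in the interaction in place of 8. That number is no pairing in the labels, arrays of the same number did not deviate together (correlations of -0.16 to 0.19), and no other count of members moved by over 1.5 times under the block. Over all genes, the block gave 52 calls in KO 24 months tumor over WT 24 months (104 as reported) and 1 in KO 24 months tumor over KO 6 months (6 as reported). With only the groups compared, all genes gave 5 and 80 calls in those comparisons and 923 in WT 24 months over WT 6 months (2418 as reported), fitting every probe set gave 57 for these genes in KO 24 months tumor over WT 24 months, centring on housekeeping genes gave 13 in KO 24 months tumor over KO 6 months, and leaving out 1 array gave 3 to 829 in KO 24 months tumor over WT 24 months and 1 to 13 in KO 24 months tumor over KO 6 months. Averaging all probe sets of a gene gave a sinusoidal minus vascular level of 0.78 in KO 24 months tumor, 0.78 in KO 6 months and 0.72 in WT 24 months, and 0.56 in WT 6 months (0.57 as reported). Leaving out 1 array gave 1 to 2 vascular members lower in WT 24 months over WT 6 months, 0 to 1 higher and 2 to 13 lower in the interaction, and 1 to 2 higher in WT 6 months against the other labels (2, and 1 in the interaction, without WT 24 months replicate 3). Single members were followed through the settings in both comparisons with WT 6 months and, where called, in the interaction, and the differences that changed sign there were of members that passed in neither comparison. Lyve1 ran from -0.27 to 0.78 in KO 6 months over WT 6 months, with -0.21 without WT 6 months replicate 2, and from -0.97 to 1.26 in WT 24 months over WT 6 months, and Emcn from -0.10 to 0.27 in WT 24 months over WT 6 months. Emcn was also at -0.0496 when centred on housekeeping genes, which moved the median of all genes to -0.13 (0.01 as reported), and Flt1 at 0.11 over the mean of its probe sets. Over all settings, 501 counts and list levels stayed within 1.5 times the reported count or, for levels, within the SD of the label. Counts of 0 that stayed at 0 are among them. A further 24 counts were lower, 4 were higher and 3 levels moved. Of the single members and medians, 1758 kept sign and call or, for medians, stayed within the median SE of the list. Of the rest, 97 lost and 14 gained a call, 9 moved and 6 changed sign. The causes were not tested. With 3 arrays a label, and 9 members under the median brightness of all genes (6.52), small differences of dim genes were not detectable.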
